A study of Mus musculus with 15 samples.

Results

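The adipocyte lineage genes examined here are 10 rows of a table of 56832 genes, picked by their symbols. They are 4 transcription factors that drive fat cell formation, *Pparg*, *Cebpa*, *Cebpb* and *Cebpd*, and 6 products of fat cells, *Fabp4*, *Lpl*, *Adipoq*, *Plin1*, *Plin4* and *Cidec*. RNA was sequenced from mesenchymal stromal cells (MSCs), adherent cells grown from the long bone marrow of 16 week old C57BL/6J mice. Per the series description the cells were CD45- by magnetic sorting, while the study's methods give magnetic depletion of CD45, Ter119 and CD31 cells or, as another route, flow sorting. The mice were TauT+/+ or lacked *Slc6a6*, the gene of the taurine transporter TauT, in every cell of the body (TauT-/-). The libraries comprised 4 labelled male TauT+/+, 3 female TauT+/+, 4 male TauT-/- and 4 female TauT-/-, so 7 TauT+/+ libraries were compared with 8 TauT-/- libraries. The cells had been expanded in medium with 15% serum and had not been given an adipogenic mix, and the labels do not say whether a library came from 1 animal or several. The study also followed adipogenic differentiation of such cultures and, by lipid staining, reported it unaffected by TauT loss. The comparison below asks what the RNA of the fat cell programme looked like before that step.

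MSCs of the marrow can become bone cells, cartilage cells or fat cells. In the fat cell route the C/EBP factors β and δ act early and turn on PPARγ (*Pparg*) and C/EBPα (*Cebpa*), which then maintain each other and switch on the genes of the mature adipocyte. Those genes serve lipid import (*Lpl*, which frees fatty acids from circulating lipoproteins, and *Fabp4*, which carries them in the cytosol), lipid storage (*Plin1* and *Plin4*, coats of the lipid droplet, and *Cidec*, which helps droplets fuse) and signalling (*Adipoq*, the hormone adiponectin). PPARγ and the C/EBP factors are not limited to fat cells, and macrophages also use *Cebpa*, *Cebpb*, *Fabp4* and *Lpl*.

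Values are given as CPM, the counts on a gene scaled to the total counts of its library with TMM factors. Log2 fold changes are TauT-/- against TauT+/+ with their standard error (SE) and come, with their adjusted p, from edgeR's quasi-likelihood test over 17204 genes with the sex label in the model. All 10 members passed the filter on low counts. Male-labelled libraries held 69764291 to 101575071 counts and female-labelled libraries 12761107 to 20781070, so sex label and depth cannot be told apart. Sex-linked transcripts contradicted the sex label of 3 libraries. Across genes, male- and female-labelled TauT-/- library 1 differed by a spread of 0.104 on the log2 scale, against 0.0601 from counting alone, and the 2 TauT+/+ libraries numbered 1 by 0.115 against 0.0627. The next closest pair differed by 0.289. It joined TauT+/+ male-labelled library 3 to TauT-/- male-labelled library 3, across the genotypes. The libraries numbered 1 were counted separately because they differed by more than counting noise, which does not show that they came from separate samples. Both male-labelled libraries of these pairs are among the 3 with a contradicted sex label. Where the pairs are 1 sample each, n is 6 and 7, and fits with 13 libraries, without 1 of each pair, are given beside the called genes and the members they move. *Slc6a6* itself ranged from 592 to 2591 CPM in TauT+/+ and from 401 to 1521 CPM in TauT-/- libraries (log2 fold change -0.97, SE 0.36, adjusted p = 0.125), so the targeted gene did not separate the genotypes and the labels are used as given. Separate cultures or animals are not stated, and p-values measure the spread between these libraries.

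None of the 10 members passed the edgeR threshold of an adjusted p of 0.05 in either direction, where 0.75% of all genes tested were called lower and 0.546% higher in TauT-/- libraries. At an unadjusted p under 0.05, 4 members were lower (*Pparg*, *Cebpa*, *Adipoq* and *Cidec*), against 13% of all genes, and 1 was higher (*Cebpb*), against 10.6%. DESeq2, run on the same genes and model, called those same 4 lower, against 6.43% of all genes, and 0 higher, against 5.65%. The log2 fold change was below 0 for 8 of 10 members with a median of -1.16, while the median over all genes tested was -0.015. No member had every TauT-/- library below every TauT+/+ library, which 0.436% of all genes did. The difference of the genotype effect between the sex labels had an edgeR adjusted p of 0.9999 for each member. Its lowest unadjusted edgeR p among the members was 0.104, for *Plin1*. Near-identical libraries sit under both sex labels and sex-linked transcripts contradicted some labels, so this contrast does not show that the sexes agree.

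**Figure D1:**
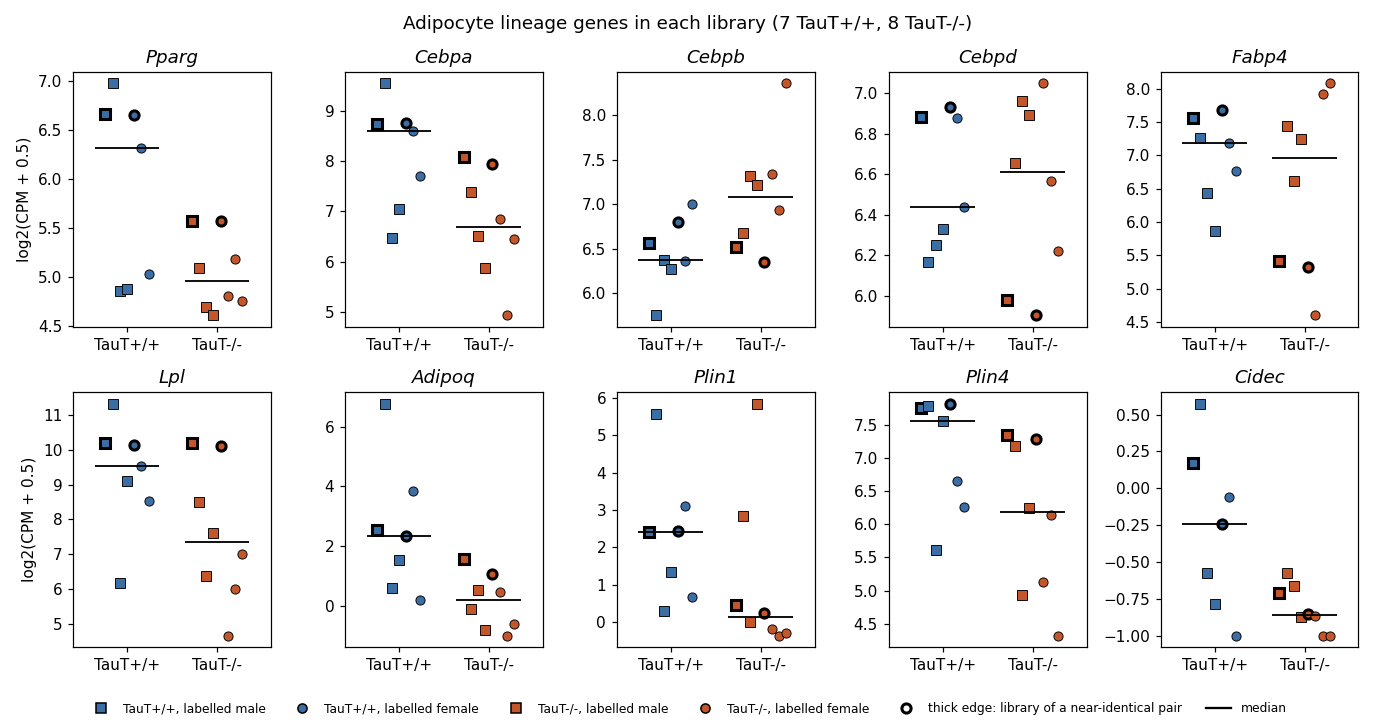
Level of each member in each of the 15 libraries, as log2(CPM + 0.5) with a separate scale per gene. Squares are libraries labelled male and circles libraries labelled female, blue TauT+/+ and orange TauT-/-. Horizontal lines are medians and thick edges mark the libraries of the near-identical pairs. The genotypes overlap for every gene, and the 8 TauT-/- libraries sit below the TauT+/+ median for *Pparg*, *Cebpa*, *Adipoq*, *Plin4* and *Cidec*.

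The members are spread over the genome. In GENCODE M39 on GRCm39, *Pparg* spans chr6:115337675-115468268 on the forward strand and *Cidec* chr6:113400691-113412721 on the reverse strand, both on the chromosome of the disrupted *Slc6a6* and 23.6 Mb and 21.66 Mb away from it. *Cebpa* (chr7:34818718-34821353), *Cebpb* (chr2:167530835-167532338) and *Cebpd* (chr16:15705150-15708895) have 1 exon each and lie on the forward strand. *Lpl* (chr8:69284603-69360100) and *Adipoq* (chr16:22964106-22976810) are also on the forward strand, while *Fabp4* (chr3:10268785-10273737), *Plin1* (chr7:79369966-79382718) and *Plin4* (chr17:56406617-56416931) are on the reverse strand. Exons of *Plin4* share 3124 bases with *Hdgfl2* and those of *Fabp4* 1188 bases with *Gm66293*, both on the opposite strand. The other members except *Plin1*, which has 0, share from 51 bases (*Cebpa*) to 563 bases (*Cebpd*, with *Spidr*) with genes on the opposite strand. Reads were counted on the reverse strand setting of featureCounts, but whether the library kit kept the strand is not given in the sources used here. If it did not, reads in these overlaps could belong to either gene. No other gene's transcript matched a member's transcript at 95% identity or more over at least 200 bases.

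The 250 bases before the start of the canonical transcript were read from GRCm39 for the *Lpl* promoter (chr8:69332893-69333142, forward strand), which holds a C/EBP core, and for *Adipoq* (chr16:22965036-22965285, forward strand), the member with the largest fold change. For both genes this start lies inside the gene span given above. Starts of other transcripts were not searched for any gene. A 30-base stretch across the start of *Plin1* (chr7:79382693-79382722, reverse strand) is shown for the other C/EBP core found. Capitals mark TTGCNNAA.
Lpl: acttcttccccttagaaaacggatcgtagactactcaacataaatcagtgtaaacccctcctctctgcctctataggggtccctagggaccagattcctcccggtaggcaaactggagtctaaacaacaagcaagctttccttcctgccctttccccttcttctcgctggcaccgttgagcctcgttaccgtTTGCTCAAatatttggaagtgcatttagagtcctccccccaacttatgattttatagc
Adipoq: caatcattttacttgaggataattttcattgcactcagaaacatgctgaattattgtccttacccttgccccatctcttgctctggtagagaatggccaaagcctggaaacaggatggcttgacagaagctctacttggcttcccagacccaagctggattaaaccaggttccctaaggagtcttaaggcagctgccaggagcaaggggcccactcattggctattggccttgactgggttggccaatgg
Plin1: ccacctctttaTTGCCTAAacatcccccat
The core began 58 bases before the *Lpl* start and 7 bases after that of *Plin1*, and 2 of 10 members held it on either strand between 250 bases before and 50 bases after the start, against 10.7% of 21757 protein-coding promoters. The repeat to which PPARγ binds with RXR, AGGTCA followed after 1 base of any kind by AGGTCA, searched on either strand, was in 0 of 10 member windows and in 0.046% of all. With 10 of 21757 windows holding this exact repeat, its absence does not show that the members lack inexact or more distant copies. A single copy, AGGTCA on either strand, was in the window of *Fabp4* alone among the members and in 15.1% of all promoters. The box TATAAA on the gene's own strand was in the windows of *Cebpa* and *Cebpb* and in 8.96% of all. Relative to the transcript start it began at position -40 in *Cebpa* and, past the start, at position 21 in *Cebpb*.

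*Pparg*, the nuclear receptor without which fat cells do not form, ranged in TauT+/+ libraries from 28.6 to 125 CPM with a median of 79.3. TauT-/- libraries ranged from 24.0 to 47.1 CPM with a median of 30.6. The 4 highest TauT+/+ libraries (79.3 CPM and above) lay above every TauT-/- library, while the other 3, male-labelled 3 and 4 and female-labelled 3, lay between 28.6 and 32.3 CPM, inside the TauT-/- range. The means were 70.7 ± 40.3 CPM (SD, n = 7) and 33.4 ± 9.36 CPM (SD, n = 8), and the log2 fold change was -1.09 (SE 0.34, edgeR adjusted p = 0.0910, DESeq2 adjusted p = 0.0264). It was -1.12 in male-labelled and -1.004 in female-labelled libraries. Without TauT+/+ male-labelled library 3 it was -1.21 and its edgeR adjusted p was 0.0390. This was the 1 call among the 15 fits that left out a library, and that fit called 779 genes lower and 476 higher. Without TauT+/+ male-labelled library 2, the highest, it was -0.87 (edgeR adjusted p = 0.169). The fits with 13 libraries gave edgeR adjusted p of 0.119 and 0.164.

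*Cebpa*, the partner of PPARγ in the later steps, ranged from 88.2 to 752 CPM in TauT+/+ libraries, with a median of 391, and from 29.9 to 271 CPM in TauT-/- libraries, with a median of 103. Again 4 TauT+/+ libraries lay above all TauT-/- libraries, and 3 TauT-/- libraries lay below all TauT+/+ libraries. The means were 349 ± 228 CPM (SD, n = 7) and 133 ± 87.2 CPM (SD, n = 8). This was a log2 fold change of -1.39 (SE 0.51, edgeR adjusted p = 0.123, DESeq2 adjusted p = 0.0460), with -1.27 under the male and -1.51 under the female label. The limma voom fit with quality weights gave an adjusted p of 0.0403, and it called 708 genes lower and 611 higher over all genes. Without TauT+/+ male-labelled library 2, the highest, the edgeR estimate was -1.07 (adjusted p = 0.256). The fits with 13 libraries gave edgeR adjusted p of 0.130 and 0.156.

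*Cebpb*, the early factor, was the member whose estimate pointed the other way. TauT+/+ libraries held 53.4 to 128 CPM with a median of 82.2, and TauT-/- libraries 81.2 to 327 CPM with a median of 135. The highest value was in TauT-/- female-labelled library 4 and the lowest in TauT+/+ male-labelled library 2, and 4 TauT-/- libraries lay above every TauT+/+ library. Its log2 fold change was 0.70 (SE 0.26, edgeR adjusted p = 0.122, DESeq2 adjusted p = 0.0596), 0.73 and 0.75 under the male and female labels. Without that TauT-/- library it was 0.48.

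*Cebpd*, the other early factor, averaged 95.6 ± 22.1 CPM (SD, n = 7) over TauT+/+ libraries and equally 95.6 ± 28.1 CPM (SD, n = 8) over TauT-/- libraries. Its ranges, 71.3 to 121 CPM and 59.3 to 132 CPM, covered each other. Its log2 fold change was 0.0023 (edgeR adjusted p = 0.995) with a 95% interval from -0.43 to 0.43. The 4 regulators thus held 2 genes with an estimate of about -1 or lower, 1 with a positive estimate and 1 near 0.

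**Figure D2:**
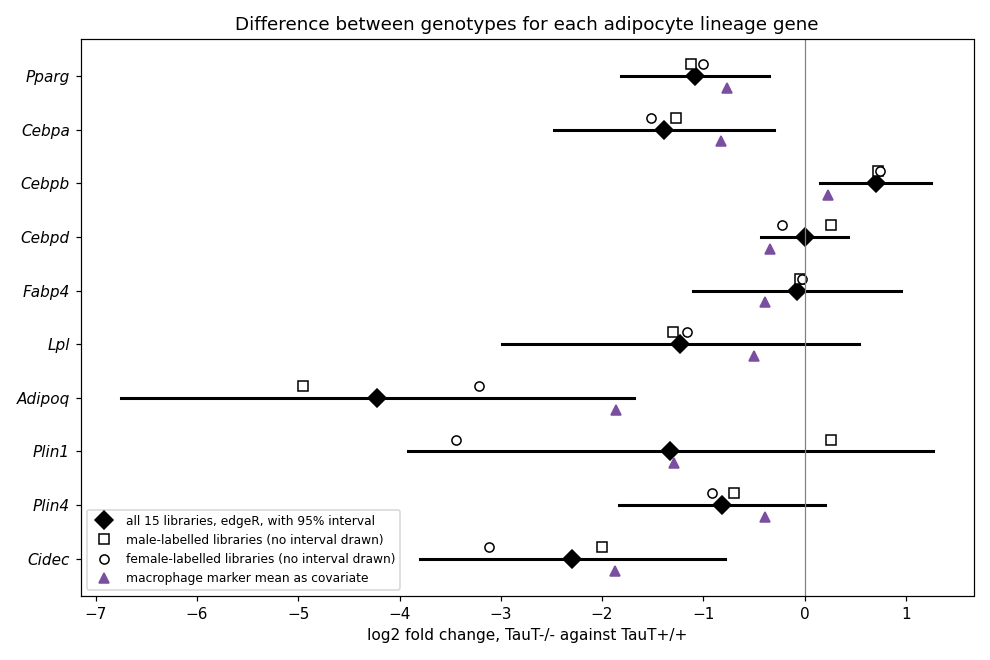
Log2 fold change of each member, TauT-/- against TauT+/+. Diamonds and bars give the edgeR estimate over 15 libraries and its 95% interval, open squares and circles the estimates within the male and female labels, and triangles the estimate with the mean macrophage marker level as a covariate. The intervals of *Pparg*, *Cebpa*, *Adipoq* and *Cidec* lie below 0 and that of *Cebpb* above it. The triangles are nearer to 0 for those 5 genes and for *Lpl*, *Plin4* and, slightly, *Plin1*, and farther from 0 for *Cebpd* and *Fabp4*.

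Among the genes of lipid import, *Lpl* had the widest absolute range. TauT+/+ libraries ran from 71.2 to 2575 CPM with a median of 738, and TauT-/- libraries from 24.8 to 1175 CPM with a median of 161. The near-identical TauT-/- libraries numbered 1 held 1175 and 1103 CPM, and the 6 other TauT-/- libraries held 359 CPM or less. Its estimate on the log2 scale was -1.23 (SE 0.82, edgeR adjusted p = 0.381), -2.13 without the female-labelled library of that pair and -0.80 without TauT+/+ male-labelled library 2, the highest. With 13 libraries it was -1.73 and -1.90 (edgeR adjusted p = 0.283 and 0.200), and voom with quality weights gave -2.71 (adjusted p = 0.0585).

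*Fabp4*, the fatty acid carrier, ranged from 58.0 to 204 CPM in TauT+/+ libraries (median 145) and from 23.7 to 270 CPM in TauT-/- libraries (median 124). Female-labelled TauT-/- libraries held both ends of that range, with 270 and 241 CPM in libraries 4 and 3 and 23.7 CPM in library 2. On the log2 scale the difference was -0.074 (SE 0.48, edgeR adjusted p = 0.945) with a 95% interval from -1.11 to 0.96. It was 0.19 and 0.17 in the fits with 13 libraries, -0.95 in voom with quality weights (adjusted p = 0.241), and 0.12 without TauT-/- female-labelled library 2, so neither its sign nor its size was fixed by these libraries.

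*Adipoq*, the adipocyte hormone, had the largest estimated difference. TauT+/+ libraries held 0.645 to 109 CPM with a median of 4.54, and TauT-/- libraries 0 to 2.45 CPM with a median of 0.644. TauT+/+ male-labelled library 2 alone held 109 CPM, or 9768 counts, and the next TauT+/+ library held 13.8 CPM. In TauT-/- libraries the counts ran from 0 to 200. Genotypes differed by a log2 fold change of -4.22 (SE 1.18, edgeR adjusted p = 0.0734, DESeq2 adjusted p = 0.00126). Without TauT+/+ male-labelled library 2 it was -2.42 (edgeR adjusted p = 0.173), and without TauT+/+ male-labelled library 3 it was -4.40 with an edgeR adjusted p of 0.0376. It was -4.95 and -3.22 under the male and female labels.

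*Plin1*, the main droplet coat of fat cells, was high in 1 library of each genotype. TauT+/+ male-labelled library 2 held 47.0 CPM and the other TauT+/+ libraries 0.724 to 8.11 CPM. TauT-/- male-labelled library 4 held 57.4 CPM, or 5047 counts, the next TauT-/- library held 6.71 CPM, and the 6 others held 0.278 to 0.883 CPM. The high TauT-/- library had 6 counts of *Adipoq* (0.068 CPM), so the genes were high together in the TauT+/+ library and apart in the TauT-/- library. The log2 fold change of *Plin1* was -1.33 (SE 1.21, edgeR adjusted p = 0.530), and DESeq2 gave no adjusted p. It was 0.26 under the male label and -3.45 under the female label, with an edgeR adjusted p of 0.9999 for that difference. Without TauT-/- male-labelled library 4 it was -2.85 (edgeR adjusted p = 0.128), and without TauT+/+ male-labelled library 2 it was -0.72.

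**Figure D3:**
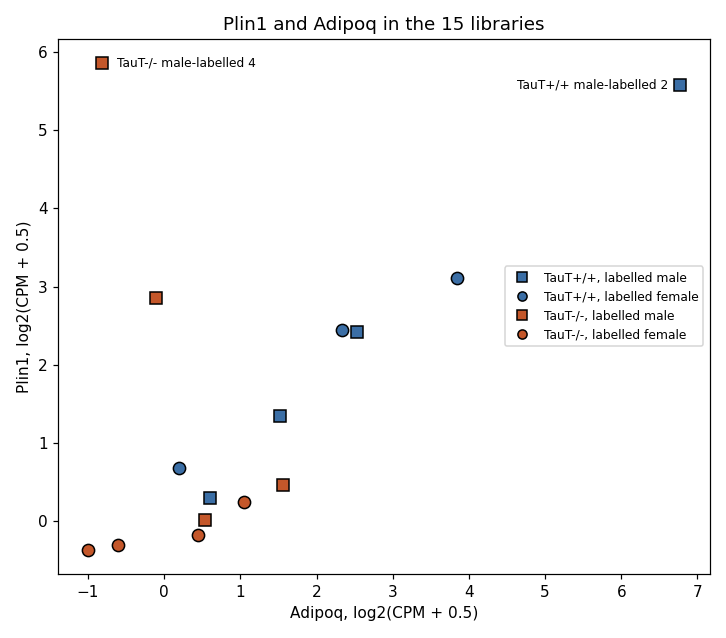
*Plin1* against *Adipoq* in the 15 libraries, both as log2(CPM + 0.5), with symbols for genotype and sex label. TauT+/+ male-labelled library 2 is high for both genes (47.0 and 109 CPM), while TauT-/- male-labelled library 4 holds 57.4 CPM of *Plin1* and 0.068 CPM of *Adipoq*.

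*Plin4*, a droplet coat also found in muscle, held 48.6 to 225 CPM in TauT+/+ libraries (median 187) and 19.5 to 163 CPM in TauT-/- libraries (median 72.4). All TauT-/- libraries lay below the TauT+/+ median, 4 TauT+/+ libraries lay above every TauT-/- library, and the log2 fold change was -0.81 (SE 0.48, edgeR adjusted p = 0.315). *Cidec*, the droplet fusion protein, was near the limit of detection with 0 to 89 counts in TauT+/+ and 0 to 15 counts in TauT-/- libraries, that is 0 to 0.990 CPM and 0 to 0.172 CPM. Its log2 fold change was -2.29 (SE 0.71, edgeR adjusted p = 0.0860, DESeq2 adjusted p = 0.0217), and it was detected in 6 of 7 TauT+/+ and 6 of 8 TauT-/- libraries.

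Levels of different members were compared per kilobase of the canonical transcript. In TauT+/+ libraries the order of the median CPM per kilobase was *Lpl* (179), *Cebpa* (149), *Fabp4* (106), *Cebpb* (54.7), *Pparg* (29.0), *Plin4* (25.1), *Cebpd* (23.0), *Adipoq* (3.43), *Plin1* (1.62) and *Cidec* (0.121), and the ranges of neighbours in this order overlapped throughout. In TauT-/- libraries *Fabp4* (91.1) and *Cebpb* (89.8) came first, then *Lpl* (39.1), *Cebpa* (39.0), *Cebpd* (26.0), *Pparg* (11.2), *Plin4* (9.72), *Adipoq* (0.487), *Plin1* (0.198) and *Cidec* (0.0175). There the ranges of neighbours overlapped except between *Plin4* and *Adipoq* and between *Plin1* and *Cidec*. By these medians the regulators and the lipid import genes stood above *Adipoq*, *Plin1* and *Cidec* in both genotypes. Single libraries broke that order, with 82.0 CPM per kilobase of *Adipoq* against 45.7 of *Pparg* in TauT+/+ male-labelled library 2 and 19.1 of *Plin1* against 8.74 of *Pparg* in TauT-/- male-labelled library 4.

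Libraries were ordered alike by several members. TauT+/+ male-labelled library 2 held the highest TauT+/+ level for 6 of 10 members (*Pparg*, *Cebpa*, *Lpl*, *Adipoq*, *Plin1* and *Cidec*). TauT+/+ male-labelled library 3 held the lowest for 5 (*Pparg*, *Cebpa*, *Lpl*, *Plin1* and *Plin4*). Among TauT-/- libraries, the near-identical libraries numbered 1 held the 2 highest levels for 5 members (*Pparg*, *Cebpa*, *Lpl*, *Adipoq* and *Plin4*) and the 2 lowest for *Cebpd*.

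The genes whose log2 CPM followed a member most closely over the 15 libraries, by Pearson's r, were named as a description, since these libraries share genotype, depth and cell makeup. For *Pparg* they were *Iftap* (0.963), *Aqp7* (0.958), the glycerol channel of fat cells, and *Gatb* (0.952). For *Cebpa* they were *Spata33* (0.955), *Pdk2* (0.953) and *Sult1a1* (0.950). *Cebpb* was followed by *Grb2* (0.957), *Zfp263* (0.957) and *Cybb* (0.957), the latter a subunit of the phagocyte oxidase, and *Cebpd* by *Mapk14* (0.841), *Nt5dc1* (0.836) and *Smim30* (0.832). *Adipoq* was followed by *Ly6g6d* (0.955), *Lgals12* (0.948), a lipid droplet galectin of fat cells, and *Kank4* (0.940), and *Plin1* by *Lrg1* (0.942), *Lrig1* (0.852) and *Irgm2* (0.851). The closest were *Ssc4d* (0.890), *Runx1t1* (0.865) and *Jun* (0.860) for *Fabp4*, and *Ccdc85b* (0.934), *Rab9* (0.933) and C230035I16Rik (0.933) for *Lpl*. They were *Il17rc* (0.966), *Pla2r1* (0.942) and an unnamed gene (0.940) for *Plin4*, and *Gm42975* (0.937), *Ccser2* (0.937) and *Kank4os* (0.929) for *Cidec*.

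The remaining fat cell pathway was described by lists of genes written by function. Where a list's most abundant genes are named, the order is that of the mean CPM over all 15 libraries. In the list of lipid droplet proteins, *G0s2*, the inhibitor of the triglyceride lipase PNPLA2, was called lower. It ranged from 3.82 to 78.8 CPM in TauT+/+ libraries (median 31.8) and from 1.74 to 7.33 CPM in TauT-/- libraries (median 3.02). The single TauT+/+ library inside the TauT-/- range was male-labelled library 3, and the other 6 lay above all TauT-/- libraries. The log2 fold change was -3.10 (SE 0.52, edgeR adjusted p = 0.0239), -2.84 and -3.38 under the male and female labels. The call was lost without TauT+/+ male-labelled library 2 (adjusted p = 0.0515), TauT+/+ female-labelled library 1 (0.0716) or 2 (0.0783) or TauT-/- female-labelled library 3 (0.0533), and in the fits with 13 libraries (0.0718 and 0.0941). It was the single call of 9 genes tested, of which 4 were below 0 with a median of 0.010, and the most abundant droplet genes were *Cavin1* (552 ± 92.9 and 576 ± 350 CPM, SD, n = 7 and 8) and *Plin2* (215 ± 81.6 and 237 ± 117 CPM).

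In the list of fatty acid uptake and triglyceride synthesis, 1 of 18 genes tested was called, *Me1*, the malic enzyme that supplies NADPH for fat synthesis. It held 101 to 176 CPM in TauT+/+ and 61.9 to 102 CPM in TauT-/- libraries, with 7 of 8 TauT-/- libraries below every TauT+/+ library, and its log2 fold change was -0.65 (SE 0.13, edgeR adjusted p = 0.0352). The call was lost in 8 of the 15 fits that left out a library (highest adjusted p 0.103, without TauT+/+ female-labelled library 2) and in both fits with 13 libraries (0.0718 and 0.101). A pseudogene, *Gm7049*, matches 1716 bases of its transcript at 98.4% identity. The call was lost without TauT+/+ male-labelled library 2 and female-labelled libraries 1, 2 and 3, and without TauT-/- male-labelled libraries 1 and 4 and female-labelled libraries 3 and 4. The list's median was -0.10, with 10 genes below 0. Named after their values were seen, *Aqp7* (log2 fold change -3.43, edgeR adjusted p = 0.0561), *Lpin1*, a phosphatidate phosphatase (-0.75, 0.0644), and *Fabp5*, a fatty acid carrier of macrophages among other cells (1.26, 0.0807), passed in DESeq2 and, without TauT+/+ male-labelled library 3, in edgeR (adjusted p = 0.0197, 0.0379 and 0.0441). voom also passed *Lpin1* (0.0263) and *Fabp5* (0.0226), and the fit without the sex term *Aqp7* (0.0431). *Fabp5* has near-identical pseudogene copies. *Scd2*, a fatty acid desaturase, was the most abundant of the list (451 ± 275 and 618 ± 361 CPM).

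Other lists of fat cell function held 0 edgeR calls. Their counts below stand beside 13% of all genes lower and 10.6% higher at an unadjusted p under 0.05. DESeq2 called 6.43% of all genes lower and 5.65% higher. Of 18 other regulators that promote fat cell formation, 9 were below and 9 above 0 (median -0.037), 1 in each direction had an unadjusted p under 0.05, and DESeq2 called *Klf4* higher. *Ebf1* (162 ± 72.8 and 100 ± 51.9 CPM) and *Rxra*, which pairs with PPARγ (126 ± 26.9 and 99.6 ± 14.9 CPM), had the highest means over all libraries, although *Klf4* was above both in TauT-/- libraries (72.1 ± 19.5 and 123 ± 49.2 CPM). Of 10 regulators that hold fat cell formation back, 6 were below 0 (median -0.068), 1 lower at an unadjusted p and 0 by DESeq2, with *Klf3* (131 ± 21.9 and 168 ± 93.1 CPM) and *Klf2* (146 ± 72.4 and 100 ± 44.4 CPM) at the highest levels. The 6 lipolysis genes had a median of 0.13, 1 lower at an unadjusted p and 0 DESeq2 calls. The lipases' main enzyme *Pnpla2* held 47.4 ± 8.03 and 48.2 ± 16.9 CPM. Of 8 adipokines and receptors tested, 4 were below 0 (median -0.083), 3 lower and 1 higher at an unadjusted p, and DESeq2 called *Cfd*, *Rbp4* and *Rarres2* lower and *Cdh13*, an adiponectin receptor, higher. *Cfd*, the protease adipsin, had a log2 fold change of -3.21 (edgeR adjusted p = 0.0664), and *Adipor1* was the most abundant (194 ± 21.1 and 222 ± 35.0 CPM). *Lep* and *Retn* did not pass the filter. Of 6 partners of lipoprotein lipase, 5 were above 0 (median 0.11), 1 in each direction at an unadjusted p, and DESeq2 called *Vldlr* higher and *Angptl4*, which inhibits the lipase, lower (log2 fold change -1.29, edgeR adjusted p = 0.0561). *Gpihbp1*, which anchors the lipase on capillary cells, was at 0 in every library, and *Lrp1* was the most abundant (2858 ± 703 and 2912 ± 626 CPM).

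**Figure D4:**
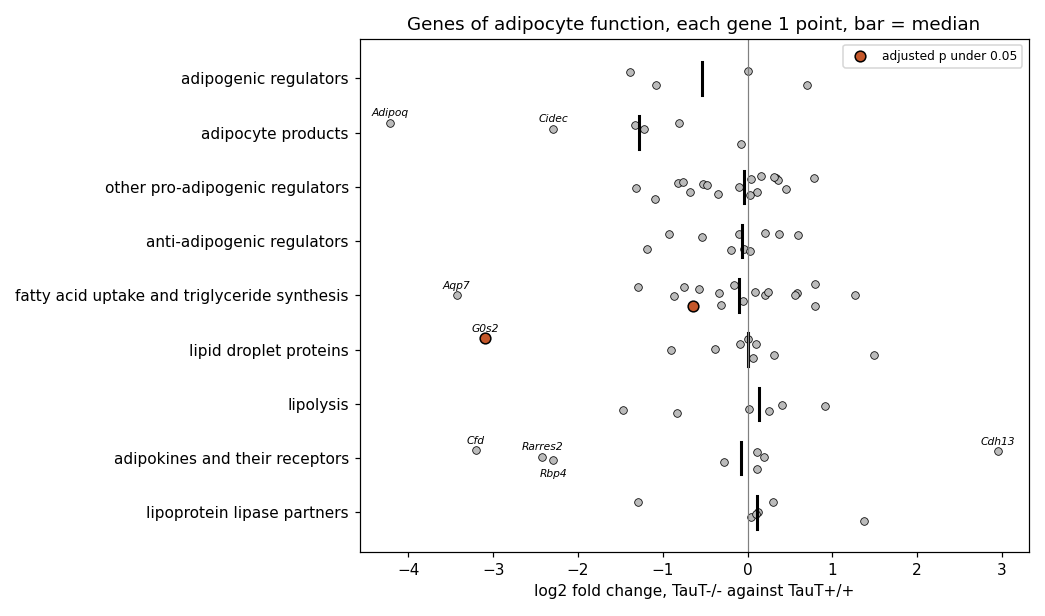
Log2 fold change of the tested genes of the 2 member groups and the 7 lists of fat cell function, TauT-/- against TauT+/+, without the cell type marker lists. Each point is a gene, black bars are list medians, orange points have an edgeR adjusted p under 0.05, and genes beyond 2 in either direction are named. The median of the products (-1.28) lies lower than those of the other lists drawn, and *G0s2* and *Me1* are the called genes among them.

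Of 18 macrophage markers, 1 was called higher by edgeR, *Cd68*, a lysosomal protein of macrophages (log2 fold change 1.46, adjusted p = 0.0445). Estimates were above 0 for 17 of them with a median of 0.89. At an unadjusted p under 0.05, 14 were higher, against 10.6% of all genes, and DESeq2 called 8, against 5.65%. The call of *Cd68* held in 3 of the 15 fits that left out a library, those without TauT+/+ male-labelled library 1 or 3 or TauT-/- female-labelled library 1, and was lost in both fits with 13 libraries (adjusted p = 0.0718 and 0.0974). Their summed level was 1454 to 9988 CPM in TauT+/+ and 6923 to 21508 CPM in TauT-/- libraries, and these markers were detected in every library although the cells had been selected as CD45-. The sum was lowest in TauT+/+ male-labelled library 2, where *Pparg*, *Cebpa*, *Lpl* and *Adipoq* were highest, and highest in TauT-/- female-labelled library 4, where *Cebpb* was highest. With the macrophage mean as a covariate in edgeR the log2 fold change was -0.76 for *Pparg*, -0.83 for *Cebpa*, -1.86 for *Adipoq*, -1.88 for *Cidec* and 0.23 for *Cebpb*, with adjusted p from 0.440 (*Cidec*) to 0.799 (*Cebpb*). For the other members it was -0.50 (*Lpl*), -0.39 (*Plin4*), -1.29 (*Plin1*), -0.34 (*Cebpd*) and -0.39 (*Fabp4*). In edgeR the covariate also ended the calls of *G0s2* (-2.57, adjusted p = 0.193) and *Me1* (-0.48, 0.283). That fit called 0 of 19164 genes lower and 0 higher, so the loss was not particular to these genes. DESeq2 with the covariate called 0 members, kept *G0s2* (-2.56, adjusted p = 0.00466) and *Cd68* (0.71, 0.00919) past the threshold and left *Me1* short of it (-0.47, 0.105). Since *Cd68* is itself 1 of the 18 markers averaged in the covariate, its value in that fit is no separate test of it. The covariate, a mean log2 CPM, was 4.61 to 7.38 in TauT+/+ libraries. It was 7.03 and 7.08 in the near-identical TauT-/- libraries numbered 1 and 7.46 to 8.35 in the other TauT-/- libraries. It thus went largely with the genotype, and these fits cannot fully tell genotype and macrophage level apart. In bulk RNA, fewer cells of a type and less RNA per cell cannot be told apart, and the part of the macrophage RNA in these differences was not tested.

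**Figure D5:**
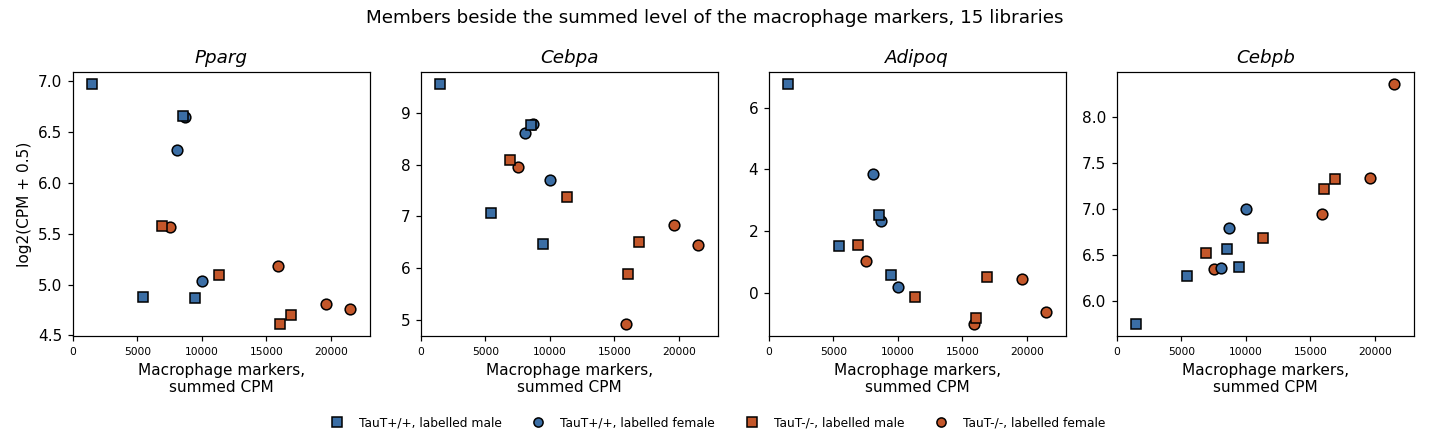
Level of *Pparg*, *Cebpa*, *Adipoq* and *Cebpb*, as log2(CPM + 0.5), against the summed CPM of 18 macrophage markers in each of the 15 libraries. The library with the lowest sum (1454 CPM, TauT+/+) has the highest *Pparg*, *Cebpa* and *Adipoq*, and the library with the highest sum (21508 CPM, TauT-/-) has the highest *Cebpb*.

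The stromal markers had a summed level of 27355 to 46820 CPM in TauT+/+ and 5936 to 39686 CPM in TauT-/- libraries. Of 11, 8 were below 0 (median -0.59), 0 were called by edgeR, 2 were lower and 1 higher at an unadjusted p, and DESeq2 called *Pdgfra* and *Pdgfrb* lower. *Lepr*, a marker of marrow stromal cells that form fat, was low in both genotypes (0.993 ± 0.727 and 0.946 ± 0.882 CPM). The adipocyte markers, which share 6 genes with the members, summed to 205 to 1188 CPM in TauT+/+ and 167 to 384 CPM in TauT-/- libraries, with 7 of 7 tested genes below 0, 0 called by edgeR and 5 by DESeq2. These 5 were *Cfd* and the members *Pparg*, *Cebpa*, *Adipoq* and *Cidec* already counted above, so the list adds little to them. Over all genes tested, 8888 of 17204 were below 0, and DESeq2 called 6.43% lower and 5.65% higher. At an unadjusted p under 0.05 in edgeR, 13% were lower and 10.6% higher. Granulocyte markers summed to 4.45 to 20.9 and 1.76 to 53.4 CPM, with 2 of 8 tested and 0 called by either tool. Endothelial markers summed to 2.68 to 9.86 and 8.78 to 37.7 CPM, with 5 of 8 tested, 0 called by edgeR and *Kdr* called higher by DESeq2.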

How the data were processed

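RNA of cultured marrow MSCs was amplified as full-length cDNA from oligo-dT primers. Per the labels and the study's methods the authors trimmed reads with fastp 0.23.1, mapped them with STAR 2.7.9a to GRCm39 with a GENCODE annotation, and counted them with featureCounts of Subread 2.0.1 under its reverse strand setting. What the authors deposited is a table of raw counts for 56832 genes, in which 0 columns lacked a sample.

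The test was the quasi-likelihood test of edgeR 4.0.16 in R 4.3.3 (TMM, filterByExpr, sex label and genotype in the model, Benjamini-Hochberg adjustment over 17204 genes). Contrasts within the sex labels came from a fit with 1 term per group. DESeq2 1.42.0 and limma 3.58.1 (voom) were alternatives. DESeq2 is the test the study used. The edgeR step was tested on simulated data. The log2 scale of the plots adds 0.5 to CPM. Positions and promoters were taken from GENCODE M39 (GRCm39), which is newer than the authors' release, and read in Python 3.11.15 with samtools 1.23.1, and 136 of 137 symbols matched. Similar transcripts were sought with BLAST+ 2.17.0.

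The members and lists were chosen with earlier results of these data known. The text names all members, list genes past the edgeR threshold, up to 4 abundant genes per list by level, and the 3 genes most like each member. *Aqp7*, *Cfd*, *Angptl4*, *Fabp5*, *Lpin1*, *Lepr* and genes called by DESeq2 alone were named after their values were seen. Alternatives also included another normalization, other filters, no sex term, a replicate block, each sex label alone, fits without near-identical or mismatched libraries, a macrophage covariate and leaving out each library. Library depth limits *Cidec* and *Adipoq*, which had 0 counts in some libraries.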

Additional observations from a re-analysis of the deposited data

Results flagged for a closer look

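The level of *Plin4* in TauT+/+ male-labelled library 3 (48.6 CPM) lay far below the other libraries of its group, with a gap to the nearest of 0.895 of the group's range, above Dixon's 95% critical value for 4 libraries. It was 1 of 30 tests over the members and the groups of 4 libraries, of which chance gives 1.5.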

How the results depend on the processing

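Over the 19 named genes, 442 alternative values kept their direction and side of the threshold, 29 passed it where the reported value did not, 52 no longer passed it and 23 changed sign. The number of members called lower was 0 in edgeR, 4 in DESeq2, 1 without the sex term (*Adipoq*, adjusted p = 0.0488), 1 in voom (*Cebpa*), and 0 to 2 when a library was left out, with 2 (*Pparg* and *Adipoq*) without TauT+/+ male-labelled library 3. The number called higher was 0 throughout, and the number below 0 ranged from 6 to 9. *Cebpd*, near 0, changed sign with upper-quartile normalization (-0.0075), a minimum of 10 counts in every library (-0.011), female-labelled libraries alone (-0.25), voom (-0.071), the macrophage covariate (-0.34, and -0.33 in DESeq2), without TauT+/+ male-labelled library 2 and TauT-/- male-labelled library 4 together (-0.10), and from -0.074 to 0.12 when a library was left out. *Fabp4* changed sign when the male-labelled (0.19) or the female-labelled (0.17) library of both near-identical pairs was left out, when the 3 libraries with a contradicted sex label were (0.17), and ranged from -0.29 to 0.12 when a library was left out. *Plin1* was 0.26 in male-labelled libraries alone. Except for the near-identical pairs and left-out libraries, which remove samples, the cause was not tested. The last 2 alternatives, with both libraries left out and with the DESeq2 covariate, were chosen after seeing the data.

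Replicate numbers are shared between genotypes, but the deviations of same-numbered libraries correlated at 0.28, 0.072 and -0.040 for female labels 1 to 3 and 0.28, 0.22, 0.62 and 0.19 for male labels 1 to 4, so they were not taken as pairs, although the 4 male-labelled values all exceed 0.1. A replicate block within the sex labels gave 0 member calls (-3.02 for *Adipoq*, -0.56 for *Fabp4*) and adjusted p of 0.0543 for *G0s2*, 0.0591 for *Me1* and 0.0704 for *Cd68*, all above the threshold, with 75 genes lower and 57 higher over all genes, against 129 and 94 without it. Over all genes the counts lower and higher were 1106 and 972 in DESeq2, 708 and 611 in voom, 276 and 195 without the sex term, 200 and 115 with at least 10 counts, 42 and 32 without a filter, 0 and 0 within either sex label, 0 and 2 or 0 and 7 with 13 libraries, 0 and 0 without the 3 mismatched libraries, 0 and 0 with the macrophage covariate in edgeR but 203 and 122 with it in DESeq2, and 4 and 8 (without TauT+/+ female-labelled library 2) to 779 and 476 (without TauT+/+ male-labelled library 3) when a library was left out. *Adipoq* and *Plin1* had no value at the minimum of 10 counts, and *Cidec* also had none in fits where it did not pass the filter, among them those without a male-labelled library.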
